A study of Homo sapiens with 4 samples.

Results

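The genes described here are those that the array measured with at least 2 probes in cells exposed to niclosamide for 6 h and in untreated cells, so that a difference seen on 1 probe could be read again on another. A gene entered the set when 2 or more of its named probes had a detection p under 0.01, against the negative controls, on both arrays. This gave 2039 genes, of 9048 genes detected on both arrays and 18665 genes with a named probe, and the other 7009 detected genes had 1 such probe. Of the set, 1722 genes had 2 detected probes, 284 had 3, 27 had 4, 5 had 5 and 1 had 6, which makes 4435 probes. The choice used detection alone and not the size or direction of any difference.

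All arrays were made from Cp70sps cells, which the labels call ovarian tumour-initiating cells. They are cells of the ovarian cancer line Cp70 that exclude the dye Hoechst 3334 and were grown in Ultra Low attachment plates, in serum-free DMEM/F12 with insulin, BSA, bFGF and EGF. The untreated group is the cells at 0 h, and the treated group is cells given 3 µM niclosamide for 6 h. Arrays at 2 h and 4 h of the same exposure are used beside them. Each time has 1 array of 1 line, and no array came from vehicle-treated cells or from untreated cells kept for 6 h, so time in culture and the drug cannot be told apart. With no replicates there is no spread between samples and no test: every difference below is that of these arrays, on the log2 scale, and probes of 1 gene on the same arrays are not replicates.

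Niclosamide is an anthelmintic that carries protons across membranes and uncouples mitochondrial respiration from ATP synthesis. Loss of ATP, amino acid shortage or misfolded protein in the endoplasmic reticulum (ER) can each engage the integrated stress response. In it the transcription factors ATF4 and CHOP raise genes of amino acid supply. Misfolded protein in the ER also engages the unfolded protein response. There IRE1, PERK and ATF6 signal from the ER, and XBP1 carries the IRE1 signal. The hypoxia-inducible factors (HIF) form another axis: when oxygen inside the cell is low they raise genes of blood vessel growth, pH control and glycolysis.

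Both arrays were of like depth: 13797 probes were detected at 0 h and 13827 at 6 h, 28.3% of 48803 in each, with a median signal of 66.0 intensity units. Of 15 epithelial and ovarian carcinoma markers, EPCAM, KRT18, KRT19 and MUC1 were detected on both arrays, while PAX8, WT1, MUC16 and CDH1 were not. Of 9 markers of tumour-initiating cells, ALDH1A1 and LIN28B were detected and CD44, KIT, PROM1 and ABCG2 were not. Markers of other cells were few, with 1 of 9 leukocyte (CD68), 1 of 7 endothelial (ESAM) and 0 of 4 erythroid markers, but 5 of 8 fibroblast markers (COL1A2, DCN, LUM, PDGFRA and THY1) were detected at both times. Of 7 mesenchymal markers, TWIST1 and VIM were detected at 0 h, and TWIST1, VIM and ZEB1 at 6 h. The arrays of 2 h and 6 h stood together against 0 h in 1 respect: probes of 1 gene differed by at least 1.5-fold in opposite directions in 37 genes between 2 h and 0 h and in 26 between 6 h and 0 h, but in at most 2 genes in each of the other 4 pairs of arrays. The labels give no chip or batch, so array processing and exposure cannot be told apart here. In an RNA sample from a culture, fewer cells of a type and less RNA per cell cannot be told apart.

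At 6 h, 42 of the 2039 genes were at least 1.5-fold higher on every detected probe (2.06%) and 25 were at least 1.5-fold lower on every probe (1.23%). A 1.5-fold difference is 0.58 on the log2 scale. At 2-fold, 8 genes were higher on every probe (0.392%) and 2 were lower (0.0981%). Higher genes made 62.7% of the 67. With median scaling of the arrays, where no quantile normalization is done, the counts were 75 and 14, or 84.3% higher, and moved the median of all 2039 genes to 0.10, so directions here are relative to the bulk of the genes. In the gene lists below, a share of members near these percentages is not a result about the list, and a count of 0 in a short list says little.

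Single probes passed the same limits more often. By the brightest probe alone, 168 of the 2039 genes (8.24%) were 1.5-fold or more above 0 h and 175 (8.58%) were 1.5-fold or more below it. Of the 168, every other probe also passed in 42 (25%) and had the same sign in 124 (73.8%). Of the 175, every other probe passed in 25 (14.3%) and had the same sign in 84 (48%). At 2-fold by the brightest probe, 27 genes were higher (1.32%), of which 22 had all probes above 0, and 33 were lower (1.62%), of which 13 had all probes below 0. By the mean over probes, 94 genes (4.61%) were past 1.5-fold upward and 70 (3.43%) downward, and 15 (0.736%) and 6 (0.294%) were past 2-fold. A large difference on a single probe was shared by the gene's other probes more often when it was upward than when it was downward, and the difference between these shares was not tested. Among the 7009 genes with only 1 detected probe, where no second reading exists, 683 (9.74%) passed 1.5-fold upward and 718 (10.2%) downward, and 133 (1.9%) and 143 (2.04%) passed 2-fold.

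Over all 2039 genes, all probes lay above 0 in 604 (29.6%), all below 0 in 578 (28.3%), and on both sides of 0 in 857. Among the 1722 genes with 2 probes, the 2 differences correlated across genes with a Pearson r of 0.265, and 1047 genes (60.8%) had probes of 1 sign. The r was 0.259 in the 1192 genes whose probes the array's annotation assigns to the same RefSeq transcript and 0.279 in the 530 whose probes are assigned to different ones. Genes were also divided into 3 equal groups by the level of the dimmer probe, and the lowest, middle and highest gave r of 0.249, 0.241 and 0.314. These values are across genes on the same arrays and describe how far 2 probes of a gene shared a difference. The plot of probe pairs shows the genes past 1.5-fold on both probes and those whose probes were opposed.

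**Figure D1:**
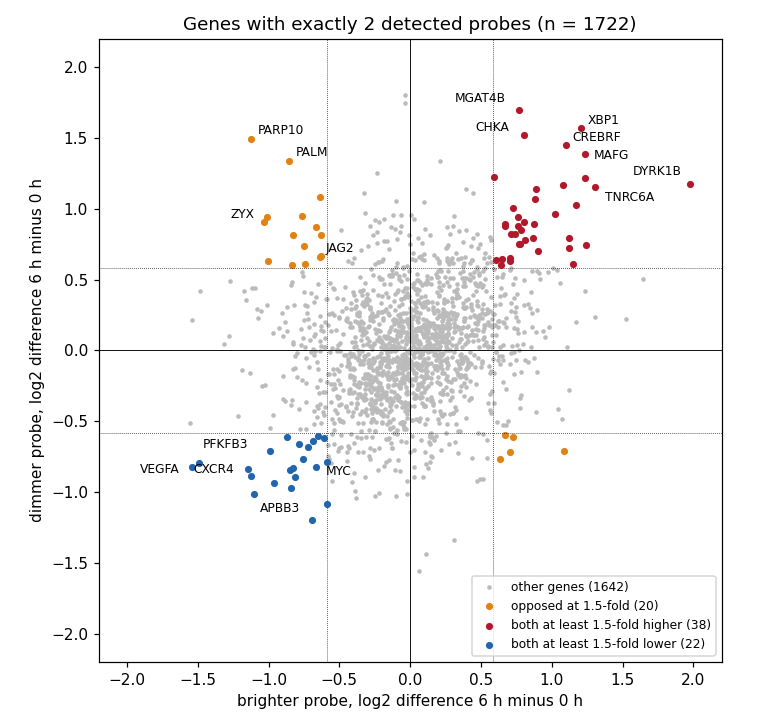
Log2 difference, 6 h minus 0 h, of the brighter probe (horizontal axis) and the dimmer probe (vertical axis) of the 1722 genes with exactly 2 detected probes, 1 point per gene, with dotted lines at 1.5-fold. Both probes were at least 1.5-fold higher in 38 genes (red) and lower in 22 (blue), and they passed in opposite directions in 20 (orange).

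Genes of the unfolded protein response and the integrated stress response stood among those highest above 0. XBP1, the transcription factor that carries the IRE1 signal, and CREBRF, a protein known to bind the ER stress factor CREB3 and promote its degradation, were at least 2-fold higher on both probes. The log2 intensities of XBP1 on the arrays of 0, 2, 4 and 6 h, in this order here and below, were 11.99, 12.04, 12.70 and 13.19 on 1 probe and 11.56, 12.02, 12.47 and 13.13 on the other. Both probes were thus lowest at 0 h and highest at 6 h, with differences of 1.21 and 1.57, or 2.31-fold and 2.96-fold. CREBRF read 8.28, 8.39, 8.70 and 9.38 on 1 probe and 7.71, 8.12, 8.49 and 9.16 on the other, again in the order of the times, with differences of 1.10 and 1.45.

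CHKA, choline kinase alpha, which starts phosphatidylcholine synthesis, is counted here among genes of the integrated stress response. Its probes read 9.61, 9.18, 10.04 and 10.42, and 7.34, 7.70, 7.98 and 8.87, so that the first was lowest at 2 h and the other at 0 h. The differences were 0.80 and 1.52. HYOU1, an ER chaperone, read 9.03, 9.65, 9.28 and 9.79 on 1 probe and 8.87, 9.53, 9.29 and 9.75 on the other. It was higher by 0.76 and 0.88 at 6 h, but its probes were higher at 2 h than at 4 h.

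The promoters of XBP1, CREBRF, MAFG and HYOU1 are shown as examples. They were picked because these genes were higher on every probe and their windows hold a searched motif. Other higher genes, such as PRRC2A, TNRC6A and NPIPA1, hold none of the motifs marked here. The windows shown are 300 bases each, from 250 before to 50 after the annotated start, 5′ to 3′ on the gene's strand. Their source is RefSeq with build GRCh38.p14. XBP1 lies at chr22:28800520-28800819 on the minus strand, CREBRF at chr5:173056102-173056401 on the plus strand, MAFG at chr17:81927686-81927985 and HYOU1 at chr11:119057156-119057455, both on the minus strand. The MAFG window lies inside the gene's full span, which ends at 81931244, so positions in it count from an internal start. Capitals mark the ER stress element (CCAAT, 9 bases, CCACG) at −52 and the core ACGTG, read on the other strand, at −202 in XBP1. They mark the E-box CACGTG at −129 and −14 in CREBRF and at −16 in MAFG, and the XBP1 element TGACGTGG at −188 and the core ACGTG at −80 in HYOU1.
XBP1: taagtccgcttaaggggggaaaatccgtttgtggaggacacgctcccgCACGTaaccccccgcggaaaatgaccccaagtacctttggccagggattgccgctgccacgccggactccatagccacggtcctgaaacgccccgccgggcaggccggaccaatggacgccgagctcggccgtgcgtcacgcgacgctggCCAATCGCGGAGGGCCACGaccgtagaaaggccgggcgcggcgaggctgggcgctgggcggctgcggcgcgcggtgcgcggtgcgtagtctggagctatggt
CREBRF: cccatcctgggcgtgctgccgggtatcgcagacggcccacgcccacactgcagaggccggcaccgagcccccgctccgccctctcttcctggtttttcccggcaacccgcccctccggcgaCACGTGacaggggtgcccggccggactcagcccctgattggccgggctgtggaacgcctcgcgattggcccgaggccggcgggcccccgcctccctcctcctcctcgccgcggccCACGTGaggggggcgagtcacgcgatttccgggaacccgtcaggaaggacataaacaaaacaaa
MAFG: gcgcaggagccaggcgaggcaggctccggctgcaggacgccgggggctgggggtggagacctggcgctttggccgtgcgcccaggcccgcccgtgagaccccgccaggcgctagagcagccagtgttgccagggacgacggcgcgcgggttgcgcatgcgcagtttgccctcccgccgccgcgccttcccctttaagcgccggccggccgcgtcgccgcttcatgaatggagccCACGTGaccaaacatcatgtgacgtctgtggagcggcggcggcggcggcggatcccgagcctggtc
HYOU1: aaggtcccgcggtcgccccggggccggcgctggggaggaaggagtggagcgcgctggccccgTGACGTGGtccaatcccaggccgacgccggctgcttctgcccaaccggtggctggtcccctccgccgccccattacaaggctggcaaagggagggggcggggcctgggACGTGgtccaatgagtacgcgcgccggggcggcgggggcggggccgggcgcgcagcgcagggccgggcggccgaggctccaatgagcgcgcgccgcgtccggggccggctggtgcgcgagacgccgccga

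Each motif was searched on both strands of 27305 promoters in all, of which 1721 belong to genes of the set. The ER stress element occurs in 0.0806% of all promoters and 0.174% of the set's, and XBP1 alone holds it among the 38 higher and 19 lower genes with a promoter in the table. The XBP1 element occurs in 0.795% and 1.28%, and the E-box in 7.43% and 10.98%. Of the 10 genes past 2-fold, 8 have a promoter in the table, and 3 of these, CREBRF, DYRK1B and MAFG, hold an E-box, as do 5 of 38 genes past 1.5-fold upward (13.2%) and 0 of 19 downward. The core ACGTG, which every E-box also contains, occurs in 21.6% of all promoters, 29.2% of the set's, 5 of these 8 (the lower gene IKBIP among them), 10 of 38 higher genes (26.3%) and 4 of 19 lower genes (21.1%). It is the core of the hypoxia response element as well as of the unfolded protein response element. The windows of CXCR4, PFKFB3 and CA12, lower genes described below, do not hold it. The C/EBP-ATF response element (TGATGNAA) occurs in 3.67% of all promoters and 1.39% of the set's, and the CRE (TGACGTCA) in 1.98% and 3.83%. Each matched 0 of the 8 windows, which says little at such low shares. Of the 38 higher genes, 1 (RILPL2) holds the C/EBP-ATF response element and 0 hold the CRE, and of the 19 lower genes 0 hold either. The core of the small MAF and NRF2 element (TGANNNNGC) occurs in 42.1% of all promoters and 3 of the 8. A match describes letters in a window and not a bound site.

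As a list, the integrated stress response had 8 members in the set, and all 8 had every probe above 0, against 29.6% of all 2039 genes. This and the other lists were chosen with earlier results of these data known. The share therefore describes the list and is not independent support. CHKA and CREBRF passed 1.5-fold on every probe, 0 passed downward, and the median of the gene means was 0.43, against 0.00 over the set. ASNS, asparagine synthetase, was higher by 0.47 and 0.82, and PCK2, the mitochondrial enzyme that makes phosphoenolpyruvate, by 0.39 and 0.66. NUPR1, a stress-induced nuclear protein, averaged 0.33, XPOT, the exporter of tRNA, 0.34, ATF4 0.31 and CLIC4 0.29. The response's best known genes could not be checked in this way: DDIT3, which encodes CHOP, and CHAC1, a glutathione-degrading enzyme, have 1 probe each, with differences of 2.02 and 2.32, and ATF3 was detected on 1 of its 2 probes, at 1.63. The 27 genes of this list with 1 detected probe had a median of 0.77, and the brightest probes of its 8 members had 0.47.

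The list of the ER unfolded protein response and chaperones was more mixed. Of 10 members, XBP1, CREBRF and HYOU1 were past 1.5-fold and 0 were lower, with a median of 0.14. SYVN1, a ubiquitin ligase of ER-associated degradation, read -0.24 on 1 probe and 1.25 on another. CANX, the lectin chaperone calnexin, averaged -0.13, DNAJC10, an ER reductase, -0.25, and SELENOS 0.09. The largest values of the list were therefore carried by these 3 genes, and CREBRF is in both lists.

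MAFG encodes a small MAF protein, a partner of the antioxidant factor NRF2 in binding DNA. Its probes read 8.99, 9.62, 9.61 and 10.22, and 8.62, 9.23, 9.21 and 10.00. Both were lowest at 0 h, nearly level between 2 h and 4 h, and highest at 6 h, with differences of 1.23 and 1.39. The other probe of the gene was not detected on either array (p of 0.030 and 0.025) and differed by 0.00.

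Of the 11 members of the list of NRF2, small MAF proteins and antioxidant targets, MAFG and GCLM passed upward, 0 passed downward, and the median was 0.44. By the brightest probe the median was 0.26, and the 11 genes of the list with 1 detected probe had 0.53. The members' median was 0.01 for 6 h minus 2 h and -0.16 for 4 h minus 2 h. GCLM, the modifier subunit of the enzyme that limits glutathione synthesis, was higher by 0.71 and 0.63, and no longer passed with the authors' processed values or an offset of 50. The call of MAFG ended at a detection p under 0.05, where its other probe counts. GPX4, which reduces lipid peroxides, was higher by 0.51 and 0.56, TXNRD1, thioredoxin reductase, averaged 0.44, and KEAP1, the inhibitor of NRF2, 0.46. Members did not all lie on 1 side, since NQO1, a widely used NRF2 target, read -0.77 and -0.15, and GSR, PRDX1 and TXN had means from -0.13 to -0.05.

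The other genes at least 2-fold higher on every probe have diverse functions. DYRK1B, a protein kinase of the DYRK family, read 6.68, 8.63, 7.97 and 8.66 on 1 probe and 6.41, 7.70, 6.74 and 7.59 on the other. It was higher by 1.98 and 1.18 at 6 h, and both probes were higher at 2 h than at 4 h. TNRC6A, the Argonaute partner also called GW182, read 9.08, 10.18, 9.92 and 10.38, and 6.58, 7.55, 7.43 and 7.73, with differences of 1.31 and 1.15.

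PWWP2B, a chromatin-binding protein, read 9.56, 10.27, 10.22 and 10.80, and 6.88, 7.57, 7.65 and 8.10, so that its differences of 1.24 and 1.22 were nearly equal. PRRC2A, an RNA-binding protein, was higher by 1.08 and 1.17, and NPIPA1, of a family of near-identical copies, by 1.17 and 1.03. None of these 5 genes read below its 0 h value at a later time on either probe.

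Listed targets of the hypoxia-inducible factors lay mostly on the other side. The list had 11 members, of which VEGFA, CXCR4, PFKFB3 and CA12 were at least 1.5-fold lower on every probe and 0 were higher. All probes were below 0 in 7 members and above 0 in 0, and the median was -0.41. These counts depend on which genes were listed. Glycolysis genes, which these factors also raise, are counted in a list of their own below, and only PFKFB3 is a member of both. In that list PKM was at least 1.5-fold higher on every probe. VEGFA, the main growth factor of blood vessels, read 9.42, 7.94, 8.37 and 7.88 on 1 probe and 7.25, 6.40, 6.48 and 6.43 on the other, so that all later arrays were below 0 h. The differences were -1.54 and -0.82, or 2.91-fold and 1.77-fold lower.

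CXCR4, the receptor of the chemokine CXCL12, and PFKFB3, which makes the main activator of phosphofructokinase, had another order of times. CXCR4 read 10.45, 10.55, 9.67 and 9.33 on 1 probe and 8.86, 9.31, 8.23 and 7.98 on the other. PFKFB3 read 12.06, 12.17, 11.56 and 11.07, and 9.34, 9.68, 8.78 and 8.63. Both genes were highest at 2 h on each probe and lowest at 6 h, with differences of -1.12 and -0.89 for CXCR4 and -0.99 and -0.71 for PFKFB3. With median scaling of the arrays PFKFB3 no longer passed 1.5-fold on both probes.

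CA12, a membrane carbonic anhydrase of pH control, was lower by -0.76 and -0.77. MXI1, a MAX-binding antagonist of MYC, read -0.84 and -0.39, and ANGPTL4, a secreted inhibitor of lipoprotein lipase, averaged -0.41. PLOD2, a collagen-modifying hydroxylase, read -0.34 and -0.32, while ANKZF1 averaged 0.11 and KLF10 0.02. The 26 genes of this list with 1 detected probe had a median of -0.29, and the brightest probes of the 11 members had -0.71.

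Glycolysis genes lay on both sides of 0. Of 9 members, 1 passed upward and 1 downward, and the median was -0.14. PKM, pyruvate kinase, read 12.03, 12.95, 12.57 and 12.99 on the first of 3 probes, 10.68, 11.82, 11.08 and 11.72 on another and 10.34, 11.45, 10.63 and 11.45 on the last. All 3 probes were lowest at 0 h and higher at 2 h than at 4 h, with differences of 0.96, 1.04 and 1.11 at 6 h. HK2, hexokinase 2, read -0.61 and -0.43, PDK3, which inhibits pyruvate dehydrogenase, -0.37 and -0.30, and PGK1 -0.09 and -0.24. GAPDH averaged 0.09, ALDOA 0.11 and TPI1 0.06, all smaller than the robust spread of the gene means over the set, 0.31.

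For the respiratory chain and ATP synthase, to which niclosamide's uncoupling is known to relate, 16 subunits were in the set. None passed 1.5-fold on every probe, and the median was -0.13. All probes lay below 0 in 8 and above 0 in 5. ATP5MF, at -0.58 and -0.67, missed the limit closely, and UQCR10 averaged -0.62 over 3 probes, while ATP5F1D averaged 0.38 and UQCRH 0.35.

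Both of the genes lower by 2-fold on every probe code for binding proteins. IKBIP, named for its interaction with the kinase IKBKB, read 8.71, 7.81, 7.84 and 7.51, then 7.72, 7.19, 7.02 and 6.59, and 7.35, 7.13, 6.65 and 6.32 on its 3 probes. All 3 were highest at 0 h and lowest at 6 h, with differences of -1.19, -1.13 and -1.02. APBB3, an adaptor that binds the amyloid precursor protein, read 10.75, 10.31, 10.05 and 9.64 on 1 probe and 9.50, 9.11, 8.74 and 8.49 on the other, each below the time before, with differences of -1.11 and -1.01. Both stayed past 1.5-fold with the authors' processed values, where 0 genes were 2-fold lower on every probe.

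MYC, the growth-promoting transcription factor, read 11.79, 11.66, 11.56 and 11.13 on 1 probe and 10.79, 10.34, 10.30 and 9.97 on the other. It was lowest at 6 h on both, by -0.66 and -0.82. All 4 members of the MYC and MAX network list had every probe below 0, with a median of -0.45. Besides MYC and MXI1 these were ARRDC4, a target of MLXIP, which pairs with the MAX-like protein MLX, at a mean of -0.29, and MAX at -0.11. The 12 genes of the list with 1 detected probe had a median of 0.39, on the other side of 0.

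Cytosolic ribosomal proteins were the largest list among the classes of protein synthesis, with 34 members and a median of -0.10. All probes lay below 0 in 16 and above 0 in 3, but only RPL29 passed 1.5-fold, at -0.72 and -0.68. RPL13 read -0.40 and -0.43, RPL14 -0.37 and -0.51 and RPS7 -0.33 and -0.34, while RPL3 averaged 0.22 and RPLP1 0.25. Of 13 translation factors, EIF1AX, an initiation factor that acts in scanning, was lower by -0.61 and -0.62, and the median was 0.00. EIF1AX did not pass with the authors' processed values, an offset of 50, median scaling or no detection filter, and RPL29 did not pass with median scaling. Of 16 genes of ribosome biogenesis 0 passed in either direction.

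**Figure D2:**
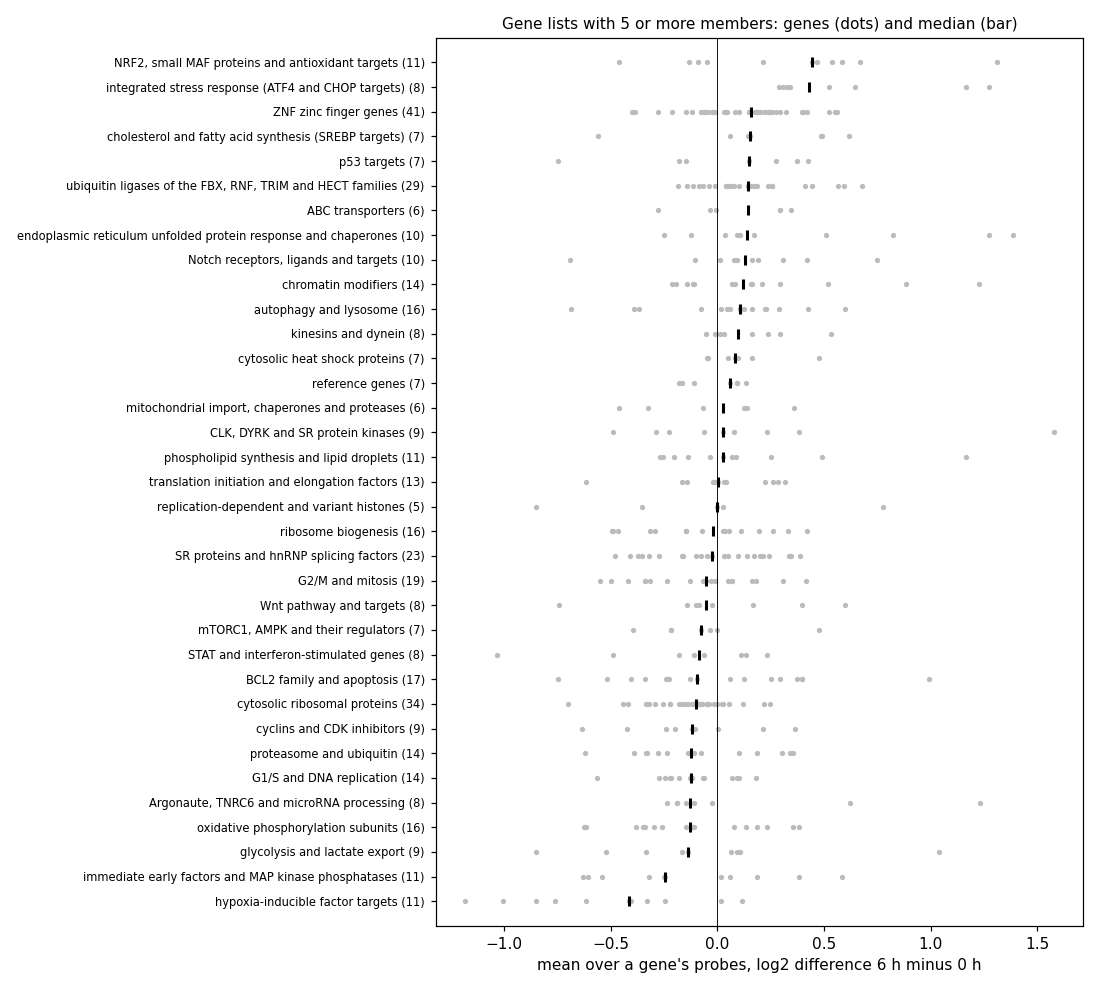
Mean over a gene's detected probes of the log2 difference, 6 h minus 0 h (horizontal axis), for the 35 gene lists with at least 5 members, with 1 dot per gene, a bar at the list's median and the number of members in brackets. The medians run from -0.41 for targets of the hypoxia-inducible factors to 0.44 for NRF2, small MAF proteins and antioxidant targets, and most lists straddle 0.

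Other lists stayed closer to the set's median. BCL2L1, which encodes the anti-apoptotic BCL-xL, was the 1 gene of 17 BCL2 family and apoptosis genes past 1.5-fold: it read 10.72, 11.55, 11.42 and 11.74 on 1 probe and 6.93, 7.85, 7.49 and 7.90 on the other, lowest at 0 h on both, with differences of 1.02 and 0.96. That list's median was -0.10, with CASP6, an effector caspase, at -0.16, -0.82 and -0.57, and BIRC2, an inhibitor of apoptosis, at 0.48 and 0.32. TNFRSF10B, a death receptor, read -1.56 and 0.06 on its probes.

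Among 29 ubiquitin ligases of the FBX, RNF, TRIM and HECT families, all probes lay above 0 in 15 and below 0 in 4, with a median of 0.14 and 0 genes past 1.5-fold on every probe. The 41 ZNF zinc finger genes gave like counts, with 17 above 0, 6 below 0, 0 past 1.5-fold and a median of 0.16. TRIM37 read 0.61 and 0.52 and ZNF394 0.73 and 0.37. By the mean over probes, 2 of the ubiquitin ligases were past 1.5-fold upward, RNF214 with 0.57 and 0.78 and FBXO17 with 0.35 and 0.85, and in each family 1 gene had opposed probes, RNF126 and ZNF598 (the latter with -0.67 and 0.87).

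Cell cycle lists had 0 genes past 1.5-fold. The medians were -0.12 for 14 genes of G1/S and DNA replication and -0.05 for 19 of G2/M and mitosis. CDK1, the mitotic kinase, read -0.68 and -0.43, RFC2, a clamp loader subunit, -0.66 and -0.47, and ZWINT, a kinetochore protein, -0.49 and -0.50. FOXM1, a transcription factor of mitotic genes, read 0.38 and 0.46, and AURKA averaged 0.31.

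The 11 immediate early factors and MAP kinase phosphatases had a median of -0.25 and 0 genes past 1.5-fold, with DUSP6, a phosphatase of ERK, at -0.40 and -0.87, and NR4A2, an orphan nuclear receptor, at -0.37 and -0.72. That median changed sign, to 0.06, when probes of any detection were used. Of 10 Notch receptors, ligands and targets, NOTCH2 read -0.39 and -0.99, RFNG, which modifies Notch receptors with sugar, 0.52, 0.98 and 0.75, and the median was 0.13, with 0 past 1.5-fold on every probe. By the brightest probe the Notch median was -0.05, and the 14 genes of this list with 1 detected probe had a median of -0.44. NOTCH1 has 1 probe, at -1.06. STAT3 read -0.15, 0.11 and -0.14 on 3 probes, and in its list of 8 STAT and interferon-stimulated genes 0 passed, with a median of -0.09 and IFI6 at -1.55 and -0.51.

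Of the other protein quality lists, the 14 members of proteasome and ubiquitin had a median of -0.12 and 0 past 1.5-fold, with the proteasome subunit PSMC4 at -0.30, -0.32 and -0.39 and the activator PSME3 at -0.90 and -0.34. The 7 cytosolic heat shock proteins had a median of 0.08 and 0 past the limit, with the constitutive chaperone HSPA8 at 0.03 and 0.07 and DNAJB2 at 0.14 and 0.81. The 16 genes of autophagy and lysosome had a median of 0.11 and 0 past the limit. The lysosomal protease CTSL read -0.88, -0.77 and -0.40 and the lysosomal glucosidase GAA 0.66 and 0.54, so that 1 probe of each missed it. ATG9A, a membrane protein of early autophagy, read 0.57 and 0.28, and ULK1, the kinase that starts it, -0.04 and -0.11. In the 7 genes of mTORC1, AMPK and their regulators, 0 passed and the median was -0.08, with TSC1, an inhibitor of mTORC1, at 0.03 and 0.93.

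Lipid and amino acid genes gave few calls. Of 7 SREBP targets 0 passed, with a median of 0.15. DHCR7, the last enzyme of cholesterol synthesis, read 0.44 and 0.79 and SQLE, squalene epoxidase, 0.74 and 0.24, while ELOVL6, which lengthens fatty acids, read -0.44 and -0.68. Of 11 genes of phospholipid synthesis and lipid droplets, CHKA passed and the median was 0.02, with ETNK1, ethanolamine kinase, at 0.92, 0.33 and 0.23. The amino acid transporters had 3 members, among them SLC38A1 at 0.72 and 0.47, and the aminoacyl-tRNA synthetases 2, among them WARS1 at 0.08 and 0.65, with 0 past the limit in either list.

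RNA and chromatin lists had medians between -0.13 and 0.12. DYRK1B was the 1 of 9 CLK, DYRK and SR protein kinases past 1.5-fold, where DYRK3 read -0.28 and -0.69 and the median was 0.03. TNRC6A was the 1 of 8 Argonaute, TNRC6 and microRNA genes, with a median of -0.13 and TUT4, a terminal uridylyltransferase, at 0.49 and 0.75. PWWP2B was the 1 of 14 chromatin modifiers, with a median of 0.12 and SMARCB1, a SWI/SNF subunit, at 0.47 and 0.57. Of 23 SR proteins and hnRNP splicing factors 0 passed, with HNRNPA1 at -0.26 and -0.70, U2AF1 at -0.25 and -0.57 and a median of -0.03. So 1 gene led each of the first 3 lists and the rest lay on both sides of 0.

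H2BC5 was also the 1 of 5 histone genes past 1.5-fold, whose median was 0.00, and H2AX, the variant phosphorylated at DNA breaks, read 0.44 and 1.11. The 7 p53 targets had a median of 0.15 with 0 past the limit, TP53INP1, a stress-induced p53 target, reading 0.59 and 0.26. The 9 cyclins and CDK inhibitors had a median of -0.12 with 0 past the limit, and CDKN2A, which encodes p16, read -1.03 and -0.24. Of 8 Wnt pathway genes and targets MYC was the 1 past the limit, with a median of -0.05, while TLE5 read 0.48 and 0.72 and CTNNB1, beta-catenin, 0.30 and 0.04. Among 7 reference genes the median was 0.06 with 0 past the limit. KRT18, the keratin in the set, read -0.12, -0.26 and -0.13 and VIM, vimentin, -0.10 and -0.08, and COL1A2, a fibroblast marker, -0.03 and -0.92.

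The sign of a small list median can rest on the scaling, the choice of probe or the detection limit. By the brightest probe 5 lists changed sign, among them CLK, DYRK and SR protein kinases, from 0.03 to -0.27. Without a detection filter 5 changed sign, and at a detection p under 0.05 it was 3. With median scaling, 8 of the 35 lists with at least 5 members changed sign: the medians of BCL2 family and apoptosis, G2/M and mitosis, SR proteins and hnRNP splicing factors, Wnt pathway, cyclins and CDK inhibitors, histones, STAT and interferon-stimulated genes, and ribosome biogenesis, which lay between -0.12 and 0.00, then lay between 0.01 and 0.09. Those of the integrated stress response, NRF2 and the hypoxia-inducible factors were then 0.54, 0.45 and -0.36.

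Some genes of interest were not in the set. CCND1, which encodes cyclin D1, TXNIP, the thioredoxin-binding protein, and HMOX1, heme oxygenase, have 1 probe each, with differences of -0.30, -0.29 and 0.63, and none of the 3 probes of CD44 was detected on both arrays.

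Further genes past 1.5-fold upward were chosen for naming after their values were seen. DNM2, the dynamin that pinches off vesicles, was higher by 0.78 and 0.85, AP2A1, a subunit of the clathrin adaptor at the plasma membrane, by 1.12 and 0.72, and RAB5C, a GTPase of early endosomes, by 0.60 and 0.64. CLN3, a lysosomal membrane protein, was higher by 0.87 and 0.79, and MTMR3, a phosphoinositide phosphatase, by 1.15 and 0.61. MTMR3 did not pass with the authors' processed values, an offset of 50, a detection p under 0.05 or no detection filter. AP2A1 did not pass with no detection filter.

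Besides XBP1 and MAFG, transcription factors past 1.5-fold upward included KLF11, a zinc finger repressor, at 0.67 and 0.89, NFKB2, the precursor of the p52 subunit of NF-kappaB, at 0.81 and 0.78, the homeobox gene MEIS3 at 0.90 and 0.71, and FOXL2, known for its role in the ovary's granulosa cells, at 0.71, 1.32 and 1.00. Signalling genes included YWHAE, which encodes 14-3-3 epsilon, at 0.78 and 0.75, and PKMYT1, which inhibits CDK1, at 1.24 and 0.74. COL6A2, a chain of collagen VI, was higher by 0.89 and 1.14, MGAT4B, a glycosyltransferase, by 0.77 and 1.70, and JUP, the junction protein plakoglobin, by 0.60, 1.47 and 0.71. PAQR6 read 0.88 and 1.07, ARHGEF11, an activator of RhoA, 0.87 and 0.89, TACC2, a centrosomal protein, 0.80 and 0.90, STRN4, a striatin, 1.12 and 0.80, and PKD1, polycystin 1, 0.76 and 0.94. PKMYT1 and JUP did not pass with the authors' processed values. NFKB2, FOXL2, YWHAE, MGAT4B, PAQR6, ARHGEF11 and TACC2 did not pass with no detection filter. MGAT4B and JUP show that a gene past the limit could still differ widely between its probes.

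Lower genes outside the lists above included TMSB15B, a thymosin that binds actin, at -0.96 and -0.93, ALDH1B1, a mitochondrial aldehyde dehydrogenase, at -0.83 and -0.83, and FOXE1, a forkhead factor of thyroid development, at -1.49 and -0.80. ANKRD16 read -1.14 and -0.84, TMEM44 -0.84 and -0.97, the methyltransferase gene HEMK2 -0.73, -0.76 and -0.81, and PKIA, an inhibitor of protein kinase A, -0.70 and -1.20. H2BC5, the H2B gene of the histone list above, read 10.73, 10.48, 10.02 and 9.88 on 1 probe and 9.61, 9.50, 8.68 and 8.76 on the other. Its difference was -0.85 on each. DUT, which removes dUTP, was lower on 3 probes by -0.73, -1.08 and -0.72, and PRPS2, which makes the ribose donor of nucleotides, by -0.65 and -0.61. DUT, PRPS2 and HEMK2 did not pass with the authors' processed values or median scaling, nor PKIA with median scaling. TMSB15B and ANKRD16 did not pass at a detection p under 0.05 or with no detection filter, nor H2BC5 and PKIA with no filter. H2BC5, TMSB15B, RPL29, NPIPA1, PKD1 and PDIA3P1 have near-identical copies or pseudogenes in the genome, and whether their probes read more than 1 gene was not checked here.

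**Figure D3:**
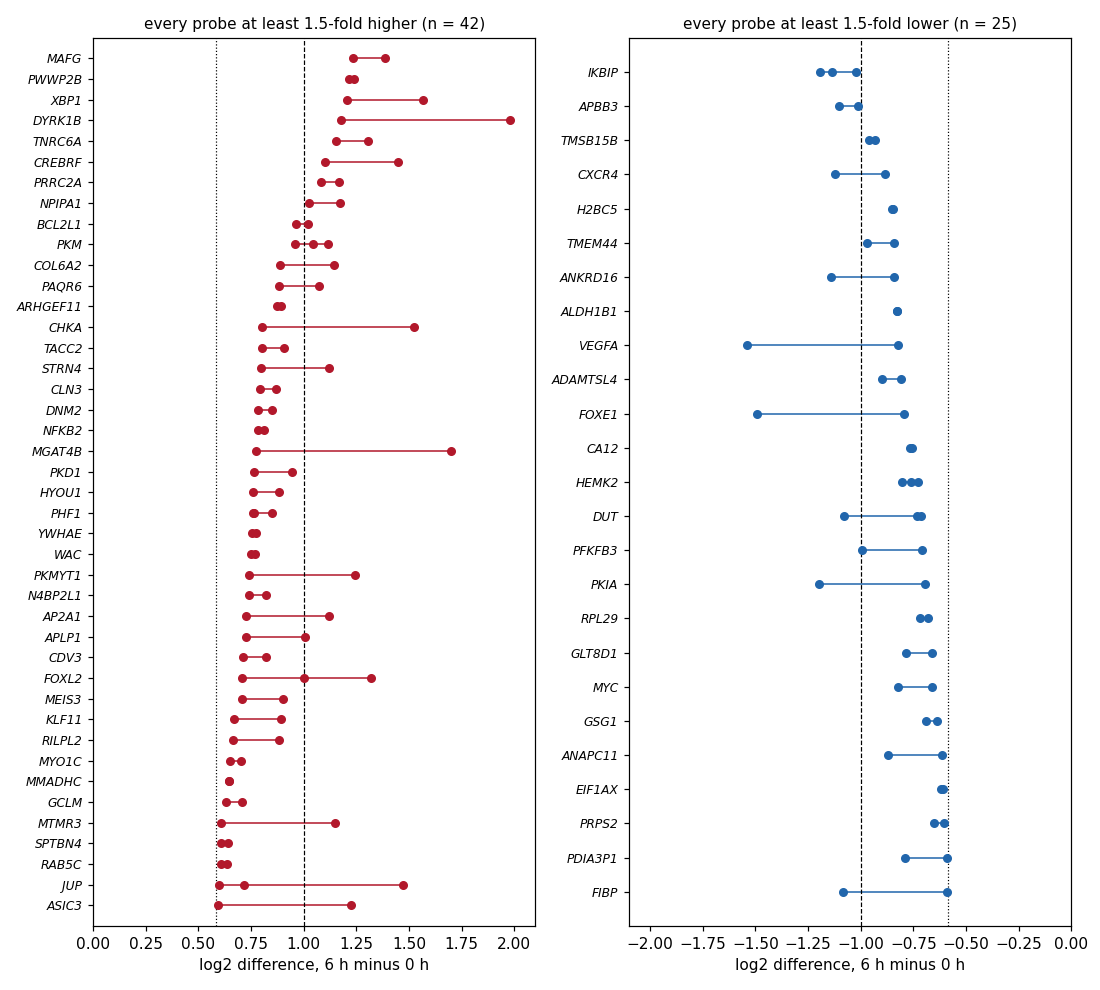
Log2 difference, 6 h minus 0 h (horizontal axis), of every detected probe (dots, joined by a line) of the 42 genes higher (left) and 25 genes lower (right) by at least 1.5-fold on every probe, ordered by the probe nearest 0, with dotted lines at 1.5-fold and dashed lines at 2-fold. MAFG and IKBIP lead their sides, and DYRK1B, VEGFA and FOXE1 are among the genes whose probes lie far apart.

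The limit of 1.5-fold lies in a dense part of the values. ASIC3, JUP and RAB5C passed upward with a smallest probe difference of 0.59, 0.60 and 0.60, and RERE, EXOC1 and BIRC7 fell just short at 0.58 each. Downward, PRPS2, PDIA3P1 and FIBP passed at -0.61, -0.59 and -0.59, and SLC41A3, ATP5MF and RHBDF2 fell short at -0.58 each.

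A further limit is set by probes that were not detected. Of the 67 genes past 1.5-fold, 31 have at least 1 more named probe that was not detected on both arrays, with differences from -0.49 to 1.16 on those probes. When probes of any detection had to pass too, 24 of the 42 higher and 14 of the 25 lower genes did, and MAFG, TNRC6A, PWWP2B, CHKA, VEGFA and CXCR4 were among those that did not. VEGFA's other probe differed by -0.08, CXCR4's by -0.22, TNRC6A's by -0.22, and those of CHKA by -0.07 to 0.10. ADAMTSL4 was an exception, lower by -0.81 and -0.90 on its detected probes but higher by 1.16 on the other, which had a detection p of 0.045 at 0 h and 0.0066 at 6 h. Among the 67, 40 genes have probes assigned to 1 RefSeq transcript, so for them the check is 2 or 3 readings of the same annotated transcript.

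The difference between 4 h and 2 h shares no array with that between 6 h and 0 h. It is not free of the array grouping given above, in which 2 h and 6 h stand together, so the counts below are a description of these arrays and not a time course of the drug. Of the 42 higher genes, every probe was higher at 4 h than at 2 h in 8 genes and lower in 27, and the probes were split in 7. The 8 were XBP1, CREBRF, CHKA, KLF11, CDV3, TACC2, MMADHC and N4BP2L1. The 27 included DYRK1B, PRRC2A, PKM, BCL2L1, HYOU1, TNRC6A, NPIPA1 and, by at most -0.02, MAFG. In the 4435 probes of the set, 50.3% were lower at 4 h than at 2 h, against 65 of the 88 probes of the higher genes (73.9%). Among opposed genes, described further on, 21 of the 26 probes that were high at 6 h were also lower at 4 h than at 2 h, and how far the 27 genes share that pattern of the arrays was not tested.

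The difference between 6 h and 2 h uses the 6 h array again. It also uses the 2 h array by which the 8 and the 27 were split, so for these groups its values are given for single genes only. XBP1 was higher at 6 h than at 2 h by 1.15 and 1.11, CREBRF by 0.98 and 1.04, CHKA by 1.24 and 1.17, KLF11 by 0.64 and 0.60, and MAFG by 0.60 and 0.77. DYRK1B differed by 0.03 and -0.12 in that pair, PRRC2A by -0.07 and -0.19, and PKM by 0.04, -0.10 and 0.00.

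Of the 25 lower genes, every probe was lower at 4 h than at 2 h in 10, among them CXCR4, PFKFB3, H2BC5, APBB3 and MYC, and higher in 6, among them VEGFA, DUT and PRPS2. The probes were split in 9, among them IKBIP and CA12. In the difference that shares both arrays, CXCR4 was lower at 6 h than at 2 h by -1.22 and -1.33, PFKFB3 by -1.11 and -1.04, and APBB3 by -0.66 and -0.63, while VEGFA differed by -0.07 and 0.03.

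With the 2 h array as the reference, 11 of the 2039 genes (0.539%) were at least 1.5-fold higher on every probe at 6 h and 11 (0.539%) were lower. The higher ones were XBP1, CREBRF, CHKA, KLF11, MAFG, N4BP2L1, ATOSA, GEM, PSPH, TSC1 and ZSWIM4. The lower ones were CXCR4, PFKFB3, APBB3, H2BC5, ANGPTL4, MXI1, FAM13A, ISM2, PDGFB, RIMKLA and TAF15. Between 4 h and 2 h, 2 genes (0.0981%) passed upward, CKAP2 and KIF11, which act on the mitotic spindle, and 12 (0.589%) passed downward, CXCR4, PFKFB3, DYRK1B and PRRC2A among them. The plot of probe values over the times shows both patterns.

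**Figure D4:**
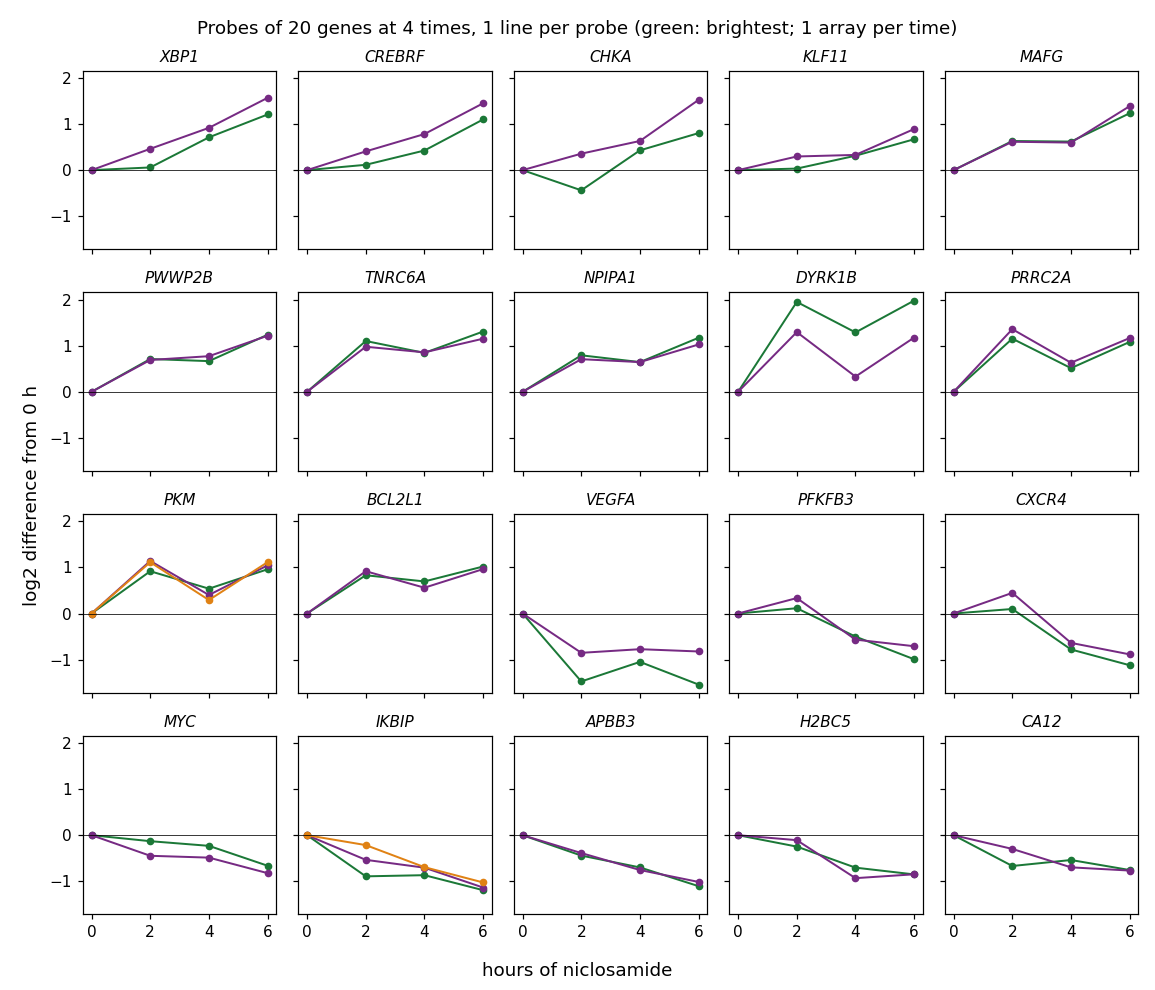
Log2 difference from 0 h (vertical axis) against hours of niclosamide (horizontal axis) for each detected probe of 20 genes past 1.5-fold on every probe, 1 line per probe and 1 array per time, with the brightest probe in green. XBP1 and CREBRF are higher at each later time, DYRK1B, PRRC2A and PKM are higher at 2 h than at 4 h, and CXCR4 and PFKFB3 are highest at 2 h and lowest at 6 h.

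In 26 genes (1.28%), 1 probe was at least 1.5-fold higher at 6 h and another at least 1.5-fold lower. PARP10, an ADP-ribosyltransferase, read 9.83, 8.48, 9.03 and 8.71 on 1 probe, and 7.07, 8.60, 8.10 and 8.56 on the other. Its differences were -1.12 and 1.49, and the probes departed from 0 h in opposite directions at all 3 later times. ZYX, the focal adhesion protein zyxin, read 12.51, 11.53, 12.23 and 11.47 on 1 probe and 11.02, 12.03, 11.39 and 11.92 on the other, with differences of -1.04 and 0.90. For ZYX both probes were nearer to their 0 h value at 4 h than at 2 h or 6 h.

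PALM, the membrane protein paralemmin, read -0.85 and 1.34, and MED16, a subunit of the Mediator complex, -0.84, -0.98 and 0.89. WTIP, of the zyxin family of LIM proteins, read -1.01 and 0.94, the bromodomain gene BRWD1 -0.76 and 0.95, FOXRED2, an ER flavoprotein, -0.83 and 0.81, and TYSND1, a peroxisomal protease, -0.77, 0.44 and 0.93. The Notch ligand JAG2 read -0.64 and 0.66. In 17 of the 26 genes all detected probes are assigned to the same RefSeq transcript. For a gene of this kind, a value from 1 probe would give a direction that another probe contradicts.

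At 4 h against 2 h, on arrays that played no part in choosing these 26 genes, 21 of the 26 probes that were high at 6 h were lower at 4 h than at 2 h, with a median of -0.32. Of the 27 probes that were low at 6 h, 25 were higher at 4 h than at 2 h, with a median of 0.32. As a share of the set, the 37 opposed genes between 2 h and 0 h are 1.81%. There were 2 (0.0981%) between 4 h and 0 h and between 4 h and 2 h, and 0 between 6 h and 2 h and between 6 h and 4 h. Across the 1722 genes with 2 probes, r between the probes was 0.075 for 2 h minus 0 h, 0.265 for 6 h minus 0 h, 0.316 for 4 h minus 0 h, 0.350 for 4 h minus 2 h and 0.637 for 6 h minus 2 h. Pairs that share an array are not independent of each other, and the part of array processing in these values was not tested.

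**Figure D5:**
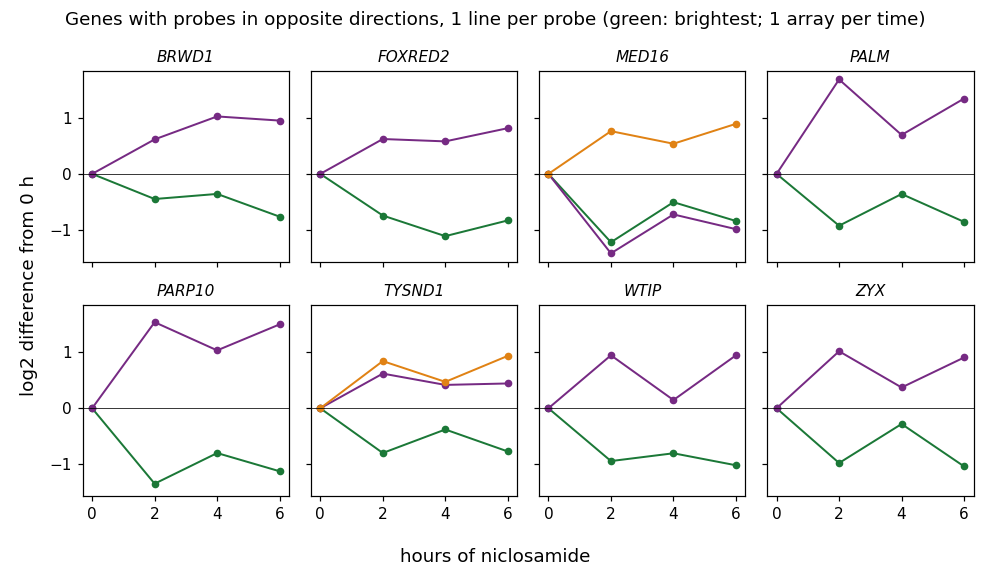
Log2 difference from 0 h (vertical axis) against hours of niclosamide (horizontal axis) for each detected probe of the 8 genes whose probes opposed each other most, 1 line per probe and 1 array per time, with the brightest probe in green. In PARP10, PALM, ZYX and MED16 the probes part at 2 h, come nearer at 4 h and part again at 6 h.

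Promoter base composition was described as a property that the choice of genes did not use. The median GC content of the 300-base promoters was 65.3% over the 1721 genes with one, 68.0% for 38 higher genes, 67.0% for 19 lower genes and 72.8% for 20 opposed genes. Across the 1721 genes, promoter GC content and the mean difference at 6 h had a Pearson r of 0.060.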

How the data were processed

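Biotin-labelled cRNA from 4 samples was hybridized to Illumina bead arrays. The deposited non-normalized values are intensity per probe, and the submitters' processing notes name BeadStudio, whose version is not given in the sources used here. Each also has a detection p-value, as the file headers of the deposited table call it. The authors' processed intensity values equal quantile-normalized raw intensity within 1.46%, with no background subtraction.

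In R 4.3.3, limma 3.58.1 (neqc) gave normexp background correction with negative controls estimated from those p-values, an added offset of 16, quantile normalization over 4 arrays and log2. The offset makes differences of dim probes smaller. Probes with 1 symbol were used, 27578 of 48803, with symbols updated through Entrez identifiers where RefSeq holds them. The number of arrays limits the precision, and no test was made.

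Gene means are over detected probes. The call needs every detected probe past 1.5-fold in 1 direction. The rule for named genes took those past 2-fold, the 20 in each direction with the largest smallest probe difference, the 8 most opposed, up to 4 members of each list (a selection is printed) and a fixed set that includes VEGFA, MYC and STAT3. Any other gene named was chosen after its values were seen. The genes and lists were chosen with earlier results of these data known. The counting was run on simulated data in which all probes of a gene shared 1 shift, with little noise and no opposed probes. That run checks the counting and says nothing about how reliable the calls are. Alternatives were the authors' values, another offset, scaling, detection limit, and probe rule.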

Additional observations from a re-analysis of the deposited data

Results flagged for a closer look

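Probes with no gene name in the table used here entered no comparison. Of these, 1866 were detected at 0 h and 6 h, and at 6 h 38 lay 2-fold or more above and 25 lay 2-fold or more below their 0 h value. These are 2.04% and 1.34% of them, against 1.71% and 1.72% of the 11444 named probes detected on both arrays. With 1 array per time the difference was not tested.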

How the results depend on the processing

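No paired analysis was possible because each time has 1 array, and the replicate number in the labels is 1 for all. The 42 higher and 25 lower genes became 33 and 16 with the authors' processed values, 36 and 17 with an offset of 50, 75 and 14 with each array scaled to 1 median, 42 and 28 with quantile normalization of the 0 h and 6 h arrays alone, 50 and 23 at a detection p under 0.05, and 37 and 18 over all probes of 5913 genes with no detection filter. By the brightest probe they were 168 and 175, and by the mean over probes 94 and 70. Of these, 19 higher genes (XBP1, CREBRF, DYRK1B, PKM, BCL2L1 and HYOU1 among them) and 7 lower genes (IKBIP, APBB3, MYC, CA12, FOXE1, ALDH1B1 and TMEM44) passed on every probe under each scaling, background and detection alternative planned. MAFG and TNRC6A did not pass with a detection p under 0.05 or no filter, CHKA, VEGFA and CXCR4 did not pass with no filter, and PFKFB3 did not pass with median scaling. At 2-fold, the 8 higher genes became 4 with the authors' values, 5 with an offset of 50, 27 by the brightest probe and 15 by the mean, and the 2 lower genes became 0 with the authors' values, the offset of 50 and median scaling, 33 by the brightest probe and 6 by the mean. Without a detection filter, genes with all probes of 1 sign went from 1182 to 2665 and opposed genes from 26 to 44, since more genes enter, and the median of immediate early factors and MAP kinase phosphatases changed sign, from -0.25 to 0.058. The medians of the 35 lists were compared with a limit for each list, the robust spread of the gene means (0.31) divided by the square root of the number of members. They moved by more in 13 lists with median scaling, 11 by the brightest probe, 5 with no filter besides the list just named and 3 at a detection p under 0.05, and in 0 with the authors' values, the offset of 50 or quantile normalization of 2 arrays. Chosen after seeing the data, median scaling taken relative to the set's median gave 51 and 27, and the 2 h array as the reference gave 11 and 11. The cause of these differences was not tested. Signal over background limits dim probes, and 1 array per time limits every value.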
